A study of Mus musculus with 14 samples.

Results

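The genes described here are 37 genes of the NRF2 pathway, of glutathione metabolism and of peroxide defence. They are the rows of the 2 deposited expression tables whose gene symbol is on a fixed list of 37 names, and all 37 were found among the 23286 genes kept. All 37 passed the filter on low values in every comparison. The values come from bulk RNA sequencing of whole kidneys of 9-week-old mice, taken 5 h after surgery, which was either ischemia-reperfusion injury (IR) or a sham operation. The 12 libraries form 4 groups of 3, namely VE-PTPiKO IR, VE-PTPiKO sham, Control IR and Control sham. VE-PTPiKO is the submitters' name for a genotype that targets VE-PTP, the endothelial phosphatase encoded by Ptprb that acts on the receptor Tie2. The labels for these mice give no strain, sex, Cre driver or alleles, and they do not say what the Control mice carry. The questions are which of these genes answer to IR in either genotype, and whether the answer depends on VE-PTP.

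NRF2, encoded by Nfe2l2, is a transcription factor that KEAP1 holds at a low level by directing its degradation. When oxidants or electrophiles modify KEAP1, NRF2 accumulates and binds antioxidant response elements as a heterodimer with small MAF proteins. Its targets supply glutathione, thioredoxin and NADPH and detoxify quinones and electrophiles. Reactive oxygen species arise in the kidney when blood flow returns after ischemia. The proximal tubule is the main site of glutathione turnover in the kidney, and it makes the glutathione peroxidase of blood plasma, GPX3.

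Reads on genes numbered 15427887 in the shallowest library and 21296392 in the deepest. Ptprb, which encodes the targeted protein, stood at 98.5 ± 25.6 CPM (read counts scaled to the library total) in VE-PTPiKO IR, 147 ± 25.9 in VE-PTPiKO sham, 131 ± 24.7 in Control IR and 197 ± 42.4 in Control sham (SD, n = 3 each). Its genotype difference was −0.45 ± 0.20 SE (log2) in IR and −0.43 ± 0.20 in sham (limma adjusted p = 1 in both, unadjusted p = 0.0413 and 0.0529). The VE-PTPiKO sham libraries all lay below the Control sham libraries, as they did for 2.37% of all genes, and the IR ranges overlapped. Between IR and sham, the log2 fold change of Ptprb was −0.65 ± 0.21 SE in VE-PTPiKO (limma adjusted p = 0.167). In Control it was −0.62 ± 0.15 (adjusted p = 0.0246), a fall called there and under 13 of 17 alternatives. Reads summed over the whole gene cannot show whether part of it was deleted. Malat1, a nuclear RNA, took 1.962% of reads in VE-PTPiKO IR replicate 3, 1.152% in VE-PTPiKO sham replicate 2 and 1.02% in Control sham replicate 2, against 0.3272% to 0.5644% in the other 9 libraries. These 3 libraries stood apart, and results that change without them are given both ways. Markers of proximal tubule, loop of Henle, distal tubule, collecting duct, podocytes and endothelium were all above 0 in every group, as the label kidney requires. In whole tissue, fewer cells of a type and less RNA per cell cannot be told apart.

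Before the values, promoter sequences of some of these genes are shown. Of the 4 genes raised in Control kidneys, Srxn1 and Osgin1 carry the same motif, Txnrd1 does not, and Gclc had no window to search. Nothing is read from that sharing, since the motif was chosen with the windows known. RefSeq promoter windows of the GRCm38.p6 build, reaching from 250 bases before a transcript start to 50 bases after it, were matched for 33 of the 37 genes, with 45 windows in all. The genes with no window were Gclc, Gsr, Gsta4 and Prdx6. On both strands, the windows were searched for TGACNNNGC, the core of the antioxidant response element. They were also searched for TGANTCA, an AP-1 motif, and for TGANTCAGC, which is that motif followed by GC. TGANTCAGC was chosen after the windows had been read. It has as many letters as the core, and a match to it is also a match to the core in Prdx1 and Me1. In Srxn1, Osgin1 and Gstp1 it is not, because the match has G where the core as searched has C. That difference does not tell whether NRF2 binds there, which was not tested. In the lines that follow, each sequence is the gene's own strand, 5′ to 3′, and the capitals mark the match to TGANTCAGC or its reverse complement.
Srxn1, chr2:152105464-152105502, plus strand, match starting 45 bases before the start site: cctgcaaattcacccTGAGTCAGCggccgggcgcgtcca
Osgin1, chr8:119437033-119437071, plus strand, match starting 99 bases before the start site: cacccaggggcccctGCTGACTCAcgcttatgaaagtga
Prdx1, chr4:116685451-116685489, plus strand, match starting 133 bases before the start site: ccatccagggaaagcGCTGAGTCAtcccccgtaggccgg
Gstp1, chr19:4037963-4038001, minus strand, match starting 74 bases before the start site: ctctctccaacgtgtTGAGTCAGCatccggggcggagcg

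Srxn1 and Osgin1 match this 9-letter motif on opposite strands. TGANTCAGC matched 5 of the 45 windows, those of Srxn1, Osgin1, Prdx1, Gstp1 and Me1, and 1.187% of all 32851 windows. TGANTCA without the added GC matched the same 5 windows and 7.808% of all windows, and since the added letters were chosen with the windows known, nothing is read from the difference between these shares. The core TGACNNNGC matched 13 of the 45 windows, from 11 genes, and 12.392% of all windows. Srxn1 was among these 11 genes, by a core match separate from the motif shown above. That match starts at base 29 after the start site, on the minus strand, and its sequence is not shown. The core was also present for Txnrd1, as the following sequence shows with the match in capitals. This match belongs to a RefSeq transcript start that lies upstream of the gene start given with the values of Txnrd1.
Txnrd1, chr10:82859099-82859137, plus strand, match starting 92 bases before that upstream start site: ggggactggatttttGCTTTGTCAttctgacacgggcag

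None of these motifs was found in the window of Ephx1 or of Nqo1. A match is a run of letters and not a measured binding site, and no match says nothing about NRF2 outside these windows. Prdx1, Gstp1 and Me1, which match the same motif as Srxn1 and Osgin1, did not pass the test in either genotype, and nothing is read from that.

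The 37 genes differed widely in length-scaled level. In Control sham kidneys Gpx3 was the highest, at 5910 ± 949 RPKM (CPM per kilobase of exon; SD, n = 3). Gpx1, the cytosolic and mitochondrial glutathione peroxidase, followed at 1710 ± 343 RPKM. Prdx5, a peroxiredoxin of mitochondria and peroxisomes, stood at 723 ± 109 RPKM, Ggt1, the brush-border enzyme that starts glutathione breakdown, at 558 ± 42.6 RPKM, and Cat, the catalase of peroxisomes, at 467 ± 41.6 RPKM. Among these 5, the SD ranges of neighbours in the order did not meet. The next 3, Txn1 at 190 ± 50.6 RPKM, Gstm1 at 188 ± 4.29 RPKM and Prdx3 at 163 ± 26.6 RPKM, had SD ranges that met. At the low end, Keap1 stood at 11.5 ± 0.549 RPKM, Gstm2 at 10.4 ± 2.54 RPKM and Cbr3, a carbonyl reductase, at 1.84 ± 0.55 RPKM. Srxn1, at 29.4 ± 7.96 RPKM in Control sham, was rank 26 of the 37. Together the genes took 1.964% to 2.629% of all reads in a library, and Gpx3 alone took 0.889% to 1.231%.

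**Figure D1:**
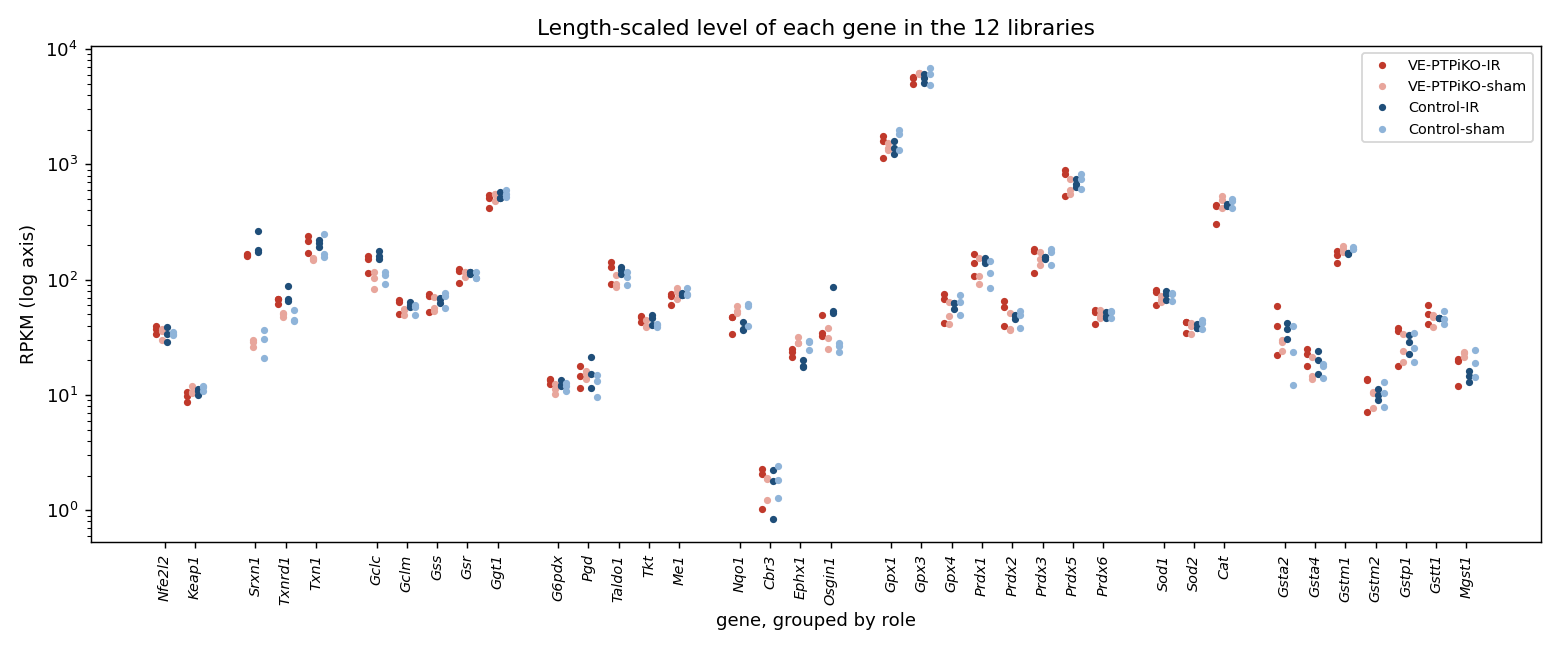
Length-scaled level (RPKM, log axis) of each of the 37 genes in the 12 libraries, grouped by role; each point is 1 library, coloured by group in the order VE-PTPiKO IR, VE-PTPiKO sham, Control IR, Control sham. Gpx3 lies highest and Cbr3 lowest in every group, and Srxn1 is the gene whose IR and sham points are farthest apart.

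The response to IR among these genes was led by Srxn1, for sulfiredoxin, in both genotypes. In VE-PTPiKO kidneys Srxn1 rose, and no other of the 37 passed the test. In Control kidneys 4 genes rose, namely Srxn1, Osgin1, Txnrd1 and Gclc, and Ephx1 fell. The number called was near the background of all genes in both genotypes, so the counts say nothing particular to this set: 1 of 37, or 2.7%, in VE-PTPiKO against 2.71% of 16401 genes tested, and 5 of 37, or 13.5%, in Control against 11.5% of 16257 genes (limma on log2(value + 1), Benjamini-Hochberg adjusted p under 0.05 over all genes tested). By direction, 1.92% of all genes were called higher and 0.793% lower in VE-PTPiKO, and 7.48% and 4.02% in Control. The median log2 fold change of the 37 genes was 0.076 in VE-PTPiKO and −0.054 in Control, beside −0.009 and −0.013 over all genes tested. At an unadjusted p under 0.05 there were 5 genes in VE-PTPiKO and 7 in Control, beside 15.2% and 24.2% of all genes. In VE-PTPiKO, IR and sham libraries did not overlap for 2 higher genes (Srxn1, Txnrd1) and 4 lower (Ephx1, Nqo1, Gpx3, Mgst1). In Control they did not overlap for 4 higher (Srxn1, Osgin1, Txnrd1, Gclc) and 2 lower (Ephx1, Gstm1). Of all genes, 20.6% separated in this way in VE-PTPiKO and 29.4% in Control, in one direction or the other.

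The count in VE-PTPiKO rested on 1 library. Without VE-PTPiKO IR replicate 3, 6 of the 37 genes were called, namely Srxn1, Gclc, Gsta2, Taldo1, Txn1 and Txnrd1, while the share of all genes called was 11.8%. In Control, leaving out IR replicate 2 left Srxn1 and Osgin1 called, while the share of all genes called was 5.3%. The 95% interval of the fold change lay wholly within 2-fold for 35 genes in VE-PTPiKO and 33 in Control, and within 1.5-fold for 16 and 25. In the authors' deposited tables, 2 genes were higher and 1 lower at an adjusted p under 0.05 in VE-PTPiKO, where 11.3% of 13732 genes passed. In Control the deposited tables had 4 higher and 3 lower, where 21.1% of 13664 genes passed. Beyond the calls above these were Txnrd1 and Ephx1 in VE-PTPiKO, and Nqo1 and Mgst1 in Control.

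**Figure D2:**
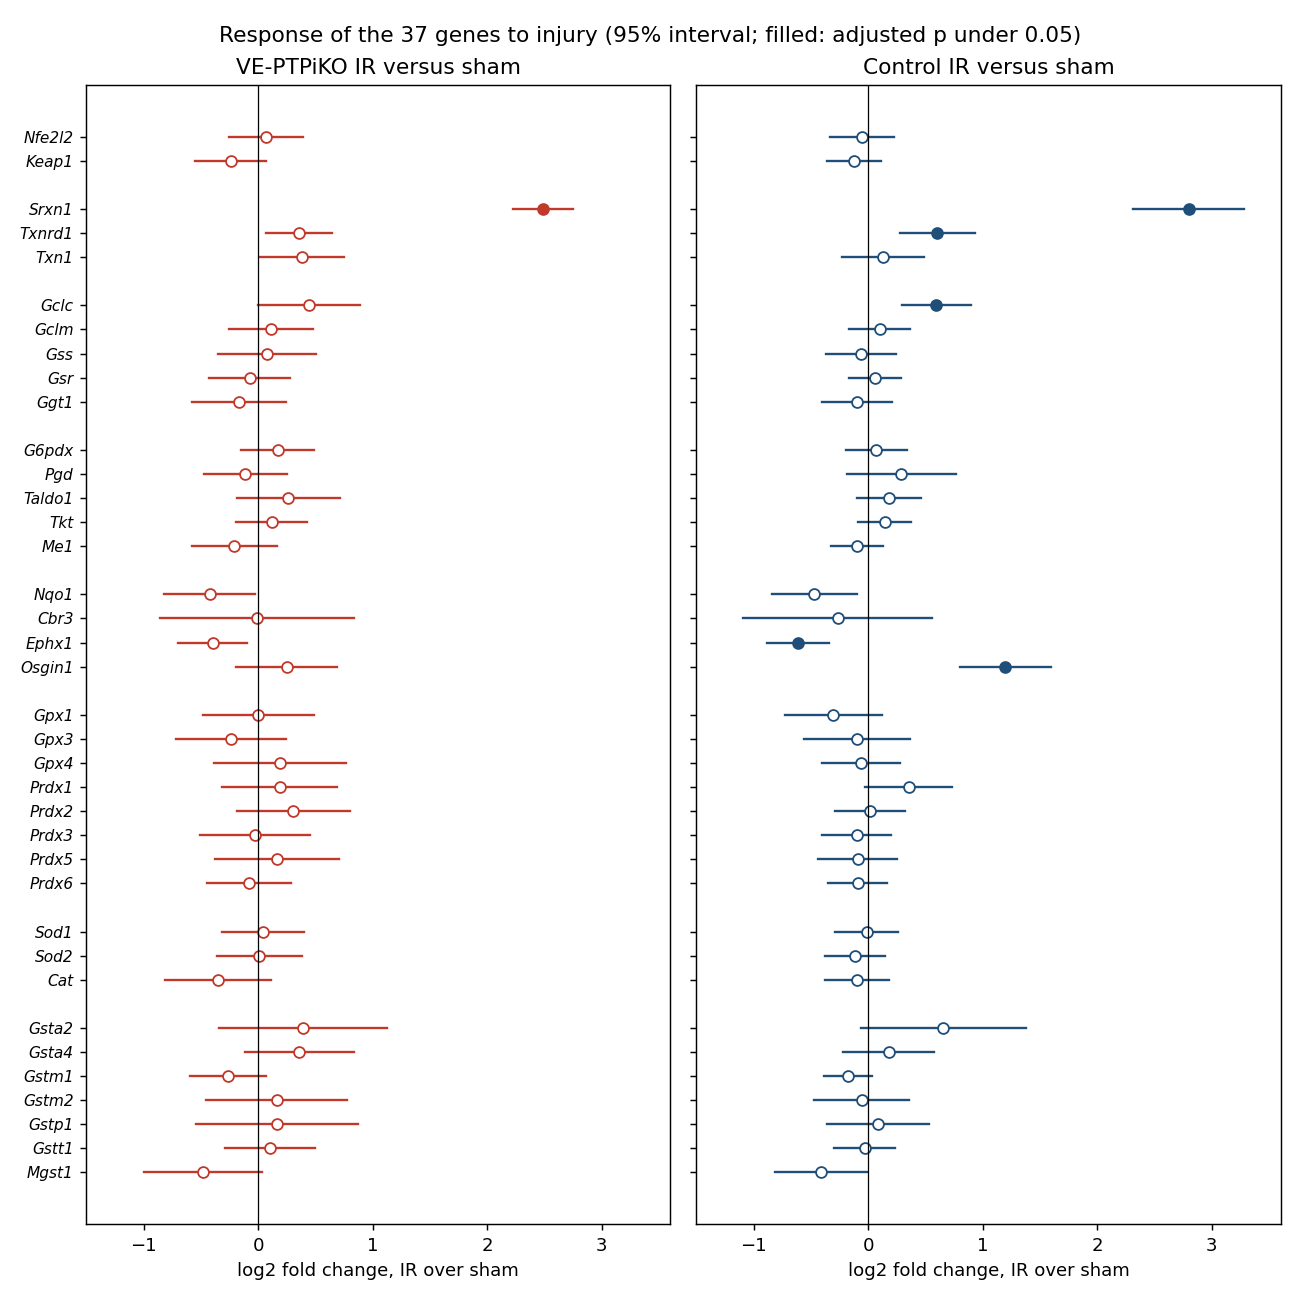
Log2 fold change, IR over sham, of each of the 37 genes with its 95% interval, in VE-PTPiKO (left) and Control (right) kidneys, grouped by role; filled points passed limma adjusted p under 0.05. Srxn1 lies far to the right in both panels, at 2.49 and 2.80, Osgin1, Txnrd1, Gclc and Ephx1 are filled in Control, and most other intervals cross 0.

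Neither regulator passed the test in either genotype, at an adjusted or an unadjusted p under 0.05. Nfe2l2, which encodes NRF2, had 152.0, 128.4 and 143.2 CPM in VE-PTPiKO IR and 113.3, 140.3 and 137.0 CPM in VE-PTPiKO sham, with 127.7, 147.1 and 110.1 CPM in Control IR and 127.1, 126.9 and 134.5 CPM in Control sham. The 4 groups overlapped. Its log2 fold change was 0.07 ± 0.14 SE in VE-PTPiKO (limma adjusted p = 0.884) and −0.05 ± 0.13 in Control (adjusted p = 0.858), with intervals of −0.26 to 0.39 and −0.33 to 0.23. Keap1, the adaptor that marks NRF2 for degradation, gave −0.24 ± 0.14 in VE-PTPiKO (adjusted p = 0.465) and −0.13 ± 0.11 in Control (adjusted p = 0.545). NRF2 is governed mostly at the level of the protein, which RNA does not measure. Of the Keap1 exon bases, 10.9% lie in an antisense gene, and the sources used here do not say whether strand was used in counting.

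Srxn1 had the largest response of the 37 genes in both genotypes. It encodes sulfiredoxin, which reduces overoxidised peroxiredoxins and so returns them to work (mm10, chromosome 2, 152105523 to 152111376, plus strand). It had 456.3, 466.7 and 471.4 CPM in VE-PTPiKO IR, against 84.4, 81.7 and 73.8 CPM in VE-PTPiKO sham. In Control it had 509.1, 752.2 and 493.7 CPM in IR, against 86.9, 58.6 and 102.9 CPM in sham. Every IR library lay above every sham library in both genotypes, and no sham library exceeded 102.9 CPM. Srxn1 rose 5.61-fold in VE-PTPiKO (log2 2.49 ± 0.12 SE, limma adjusted p = 5.94e-05) and 6.96-fold in Control (2.80 ± 0.22, adjusted p = 3.11e-05). It was called under all 17 alternatives in each genotype. The authors' deposited tables give log2 fold changes of 2.424 in VE-PTPiKO and 2.289 in Control. Their order of the genotypes is the reverse of that given by limma here, and the reason was not tested.

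Txnrd1, the cytosolic thioredoxin reductase that passes electrons from NADPH to thioredoxin (chromosome 10, 82860340 to 82897724, plus strand), had 484.2, 480.3 and 438.2 CPM in VE-PTPiKO IR, against 361.6, 354.1 and 339.6 CPM in VE-PTPiKO sham. In Control it had 485.5, 621.8 and 464.8 CPM in IR, against 314.2, 307.2 and 387.3 CPM in sham. The IR and sham values did not overlap in either genotype. In VE-PTPiKO its log2 fold change was 0.36 ± 0.13 SE (limma adjusted p = 0.221), and it was called without VE-PTPiKO IR replicate 3 (0.43, adjusted p = 0.0369; range 0.0369 to 0.562 over its 17 alternatives). Txnrd1 rose 1.52-fold in Control (log2 0.61 ± 0.15, adjusted p = 0.0229), but the call was lost without Control IR replicate 2 (adjusted p = 0.132), without Control sham replicate 1 (0.0667) and without Control sham replicate 2 (0.055), with a range of 0.00169 to 0.132. Txn1, thioredoxin itself, had 248.6, 227.4 and 179.0 CPM in VE-PTPiKO IR and 159.8, 155.5 and 163.4 CPM in VE-PTPiKO sham. It had 202.4, 234.4 and 220.7 CPM in Control IR and 261.2, 164.8 and 174.1 CPM in Control sham. Its log2 fold change was 0.39 ± 0.16 in VE-PTPiKO (adjusted p = 0.295) and 0.13 ± 0.16 in Control (adjusted p = 0.702). In VE-PTPiKO it was called without IR replicate 3 (0.55, adjusted p = 0.0187) and without the libraries highest in Malat1 (0.51, adjusted p = 0.0475; range 0.0187 to 0.696).

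Of the 5 genes of glutathione synthesis, recycling and breakdown, 1 rose, in Control. Gclc, the catalytic subunit of the rate-limiting enzyme of glutathione synthesis (chromosome 9, 77754534 to 77794489, plus strand), had 611.3, 567.8 and 433.4 CPM in VE-PTPiKO IR, against 440.8, 314.0 and 388.4 CPM in VE-PTPiKO sham. In Control it had 662.0, 605.5 and 571.4 CPM in IR, against 409.3, 343.9 and 441.8 CPM in sham. The Control groups did not overlap, while VE-PTPiKO IR replicate 3 lay below the highest VE-PTPiKO sham library. In VE-PTPiKO the log2 fold change was 0.44 ± 0.20 SE (limma adjusted p = 0.332), and without IR replicate 3 it was 0.61 (adjusted p = 0.0387; range 0.0387 to 0.712). Gclc rose 1.51-fold in Control (log2 0.60 ± 0.14, adjusted p = 0.0161). That call was lost without Control IR replicate 1 (adjusted p = 0.0582) or replicate 2 (0.0747), with a range of 0.000713 to 0.0747. Gclm, the modifier subunit of the same enzyme, averaged 381 ± 54.1 CPM in VE-PTPiKO IR, 337 ± 20.7 in VE-PTPiKO sham, 383 ± 16.6 in Control IR and 350.0 ± 33.8 in Control sham (SD, n = 3 each). The log2 fold change of Gclm was 0.12 ± 0.16 in VE-PTPiKO (adjusted p = 0.812) and 0.10 ± 0.12 in Control (adjusted p = 0.687), so the subunits gave unequal estimates within Control, a difference between genes that was not tested. Gss, which adds the last amino acid of glutathione, Gsr, which recycles its oxidised form, and Ggt1 had log2 fold changes between −0.17 and 0.08 in VE-PTPiKO and between −0.09 and 0.06 in Control, with no call. For Gss, 15.4% of exon bases lie in antisense genes.

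None of the 5 enzymes that supply NADPH was called by limma in either genotype, and none had an unadjusted p under 0.05. They are G6pdx and Pgd, the dehydrogenases of the pentose phosphate pathway, Taldo1 and Tkt of its non-oxidative branch, and the malic enzyme Me1. Their log2 fold changes ran from −0.21 for Me1 to 0.26 for Taldo1 in VE-PTPiKO and from −0.10 for Me1 to 0.29 for Pgd in Control. Taldo1 averaged 263 ± 58.2 CPM in VE-PTPiKO IR, 209 ± 26.9 in VE-PTPiKO sham, 261 ± 17.4 in Control IR and 226 ± 29.2 in Control sham (SD, n = 3 each). It was called in VE-PTPiKO without IR replicate 3 (log2 0.48, adjusted p = 0.0489; range 0.0489 to 0.932). All 5 intervals lay within 2-fold in each genotype. Reads of Me1 are uncertain, since 22.9% of its 50-base windows also occur in other genes, and 13.6% of G6pdx exon bases lie in the antisense gene Ikbkg.

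Among the quinone, carbonyl and epoxide enzymes and Osgin1, none of the 4 was called in VE-PTPiKO, while Osgin1 rose and Ephx1 fell in Control. Osgin1, an oxidative stress-induced growth inhibitor placed with them as a known NRF2 target (chromosome 8, 119437161 to 119446256, plus strand), had 87.5, 92.5 and 131.1 CPM in VE-PTPiKO IR, against 66.7, 101.3 and 84.0 CPM in VE-PTPiKO sham. In Control it had 141.9, 229.8 and 136.5 CPM in IR, against 76.3, 71.0 and 63.6 CPM in sham. The VE-PTPiKO ranges overlapped and the Control ranges did not. In VE-PTPiKO its log2 fold change was 0.25 ± 0.20 SE (limma adjusted p = 0.62), called under none of the 17 alternatives. Osgin1 rose 2.3-fold in Control (log2 1.20 ± 0.18, adjusted p = 0.00159) and was called there under all 17 alternatives.

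Ephx1, the microsomal epoxide hydrolase (chromosome 1, 180989555 to 181017569, minus strand), was the 1 gene of the set called lower, and only in Control. Nqo1 and Mgst1 were called lower under some alternatives. Ephx1 is given first. It had 41.4, 49.0 and 45.6 CPM in VE-PTPiKO IR, against 54.8, 62.2 and 55.6 CPM in VE-PTPiKO sham. In Control it had 39.6, 34.5 and 34.3 CPM in IR, against 56.7, 57.7 and 48.3 CPM in sham. All IR libraries lay below all sham libraries of the same genotype. Its log2 fold change was −0.40 ± 0.13 SE in VE-PTPiKO (limma adjusted p = 0.188). Ephx1 was 1.53-fold lower in Control (log2 −0.61 ± 0.12, adjusted p = 0.00821), a call lost without Control IR replicate 2 (adjusted p = 0.0578; range 0.00043 to 0.0578). Nqo1, the quinone reductase often used as a readout of NRF2, had 73.3, 73.4 and 52.0 CPM in VE-PTPiKO IR, against 91.2, 79.7 and 83.0 CPM in VE-PTPiKO sham. In Control it had 57.4, 66.7 and 56.4 CPM in IR, against 95.1, 62.1 and 91.4 CPM in sham. The VE-PTPiKO IR libraries lay below the VE-PTPiKO sham libraries, and in Control sham replicate 2 fell within the IR range. Its log2 fold change was −0.42 ± 0.18 in VE-PTPiKO (adjusted p = 0.295) and −0.47 ± 0.17 in Control (adjusted p = 0.105). In VE-PTPiKO it was called with a correction for exon length (−0.55, adjusted p = 0.0394; range 0.0394 to 0.671). In Control it was called without sham replicate 2 (−0.68, adjusted p = 0.00416), by DESeq2 (−0.50, adjusted p = 0.0396) and with the length correction (−0.52, adjusted p = 0.0226), with a range of 0.00416 to 0.296. Nqo1 also passed in the authors' deposited Control comparison (log2 −0.471, deposited adjusted p = 0.00877). Cbr3 gave −0.01 ± 0.37 in VE-PTPiKO and −0.27 ± 0.38 in Control, at about 2 CPM. Its interval ran from −0.86 to 0.83 in VE-PTPiKO and from −1.10 to 0.56 in Control, so that it stayed within 2-fold in VE-PTPiKO and passed it in Control.

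**Figure D3:**
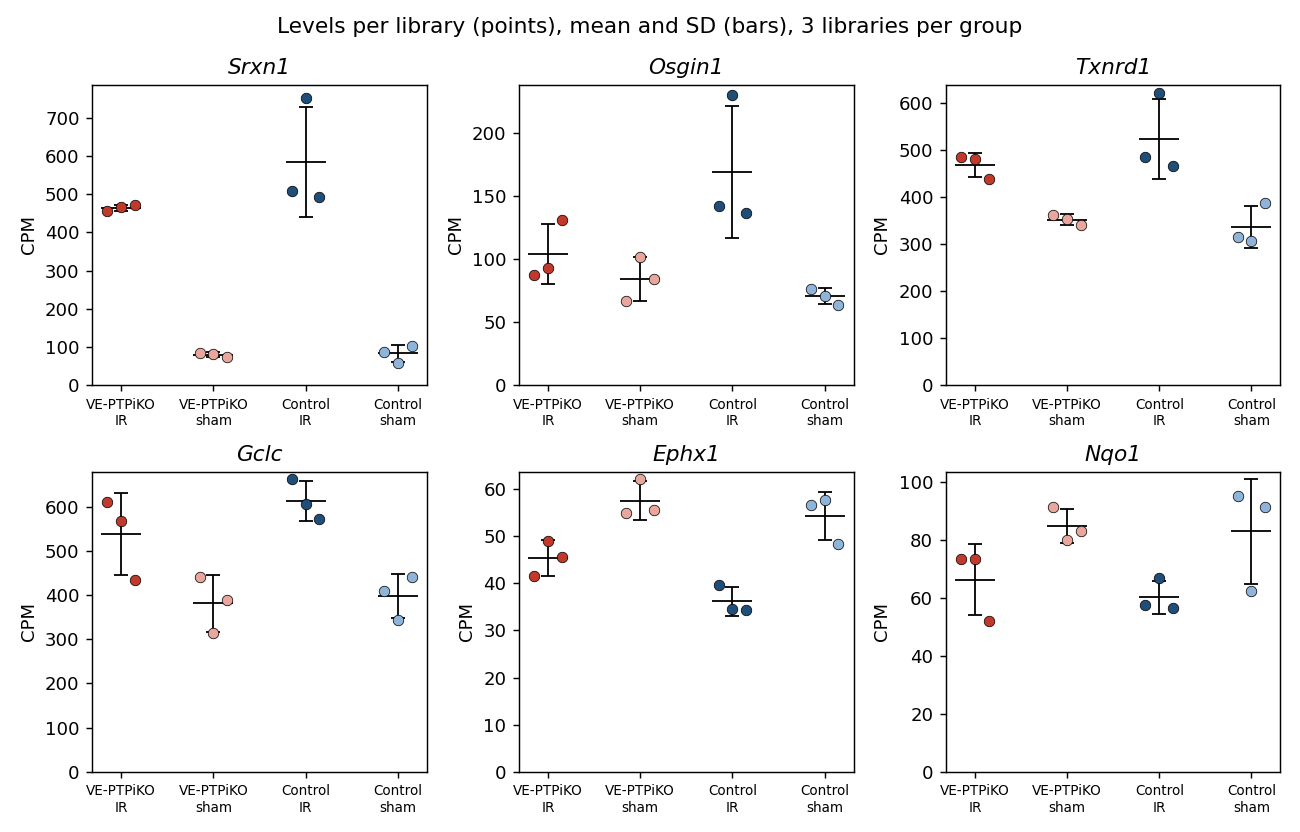
CPM per library (points) with the group mean and SD (bars) for the 5 genes called in Control and for Nqo1, in VE-PTPiKO IR, VE-PTPiKO sham, Control IR and Control sham from left to right; axes start at 0. Srxn1 is at 456.3 CPM or more in all 6 IR libraries and at 102.9 CPM or less in all 6 sham libraries, while the IR and sham points of Osgin1 separate in Control and overlap in VE-PTPiKO.

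None of the 8 peroxidases was called by limma in either genotype, and none had an unadjusted p under 0.05. Their log2 fold changes ran from −0.24 for Gpx3 to 0.31 for Prdx2 in VE-PTPiKO and from −0.30 for Gpx1 to 0.35 for Prdx1 in Control, and all 8 intervals lay within 2-fold in each genotype. Gpx3 averaged 9850.0 ± 698 CPM in VE-PTPiKO IR, 11200.0 ± 197 in VE-PTPiKO sham, 10200.0 ± 976 in Control IR and 10700.0 ± 1720.0 in Control sham (SD, n = 3 each). All 3 VE-PTPiKO IR libraries were below all 3 VE-PTPiKO sham libraries for Gpx3, a separation that 20.6% of all genes showed in one direction or the other (log2 −0.24 ± 0.21, limma adjusted p = 0.671). Prdx1, a cytosolic peroxiredoxin and substrate of sulfiredoxin, had a log2 fold change of 0.19 ± 0.22 in VE-PTPiKO (adjusted p = 0.764) and 0.35 ± 0.17 in Control (adjusted p = 0.245). Gpx4, which reduces lipid peroxides and so restrains ferroptosis, gave 0.19 ± 0.26 in VE-PTPiKO (adjusted p = 0.804) and −0.06 ± 0.15 in Control (adjusted p = 0.871). Of its 50-base windows 34.7% also occur in a pseudogene, so its level is uncertain, as is that of Prdx5, with 19.1% of exon bases in the antisense gene Trmt112. The level of Prdx2 is uncertain too, with 11.5% of exon bases in the antisense genes Junb and Rnaseh2a.

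The superoxide dismutases Sod1, of the cytosol, and Sod2, of mitochondria, and the catalase Cat were not called either, and none had an unadjusted p under 0.05. In VE-PTPiKO their log2 fold changes were 0.04 ± 0.16, 0.01 ± 0.16 and −0.35 ± 0.20 (limma adjusted p = 0.939, 0.985 and 0.486). In Control they were −0.01 ± 0.13, −0.12 ± 0.12 and −0.10 ± 0.13 (adjusted p = 0.972, 0.624 and 0.722). The Control intervals all lay within 1.5-fold. For Sod2, 17.6% of its 50-base windows also occur in 1 other gene.

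None of the 7 glutathione transferases, which conjugate electrophiles to glutathione, was called by limma. Gsta2 had the highest estimates, 0.39 ± 0.32 in VE-PTPiKO (limma adjusted p = 0.645) and 0.66 ± 0.33 in Control (adjusted p = 0.254). Its levels ranged from 26.0 to 70.0 CPM in VE-PTPiKO IR, 28.1 to 35.4 in VE-PTPiKO sham, 35.9 to 49.3 in Control IR and 14.5 to 46.4 in Control sham. The ranges overlapped in both genotypes. Gsta2 was called without VE-PTPiKO IR replicate 3 (0.79, adjusted p = 0.0301; range 0.0301 to 0.985) and, in Control, without sham replicate 1 (1.06, adjusted p = 0.0237; range 0.0237 to 0.611). Of its 50-base windows 49.8% also occur in other genes, chiefly Gsta1. Mgst1, the microsomal transferase, had the lowest estimates, −0.48 ± 0.23 in VE-PTPiKO (adjusted p = 0.371) and −0.41 ± 0.18 in Control (adjusted p = 0.197). The Control value was the 1 unadjusted p under 0.05 among the transferases. In Control it was called without sham replicate 2 (−0.62, adjusted p = 0.0173; range 0.0173 to 0.503). The other 5, Gsta4, Gstm1, Gstm2, Gstp1 and Gstt1, lay between −0.26 and 0.36 in VE-PTPiKO and between −0.18 and 0.18 in Control. Gstp1 shares 33.7% of its 50-base windows with Gstp2, and 18.9% of those of Gstm1 occur in other genes. As run here, neither edgeR nor DESeq2 called any regulator, NADPH enzyme, peroxidase, dismutase, catalase or transferase among the 37 genes in either genotype. In the authors' deposited comparison Mgst1 did pass in Control (log2 −0.42, deposited adjusted p = 0.043).

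Other genes of NRF2 control and antioxidant metabolism, on a list of 57 of which 54 were tested, were read beside the 37. In VE-PTPiKO 3 rose and none fell (5.56%, against 2.71% of all genes), and in Control 8 rose and 2 fell (18.5%, against 11.5%). The median log2 fold change was 0.046 in VE-PTPiKO and 0.045 in Control. The small MAF genes Maff and Mafk, whose proteins pair with NRF2 or with its competitor BACH1 on DNA, rose in both genotypes. Maff rose 2.75-fold in VE-PTPiKO (limma adjusted p = 0.00568) and 3.02-fold in Control (adjusted p = 0.000147), and Mafk 1.81-fold (0.0145) and 2.08-fold (0.000152). Gstm5, a glutathione transferase, rose 2.26-fold in VE-PTPiKO (adjusted p = 0.0186) and 1.78-fold in Control (0.00794).

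In Control the others that rose were Chac1, which degrades glutathione, at 11.8-fold, and Slc7a11, the cystine importer that feeds glutathione synthesis, at 4.17-fold. Lrrc8d, a subunit of volume-regulated anion channels, rose 1.48-fold, Sqstm1, a KEAP1-binding autophagy receptor, 1.44-fold, and Bach1 1.37-fold. Gstt2 was 1.68-fold lower and Oplah, the oxoprolinase of glutathione recycling, 1.64-fold lower in Control (limma adjusted p = 7.8e-06 for Chac1 and 0.00739 to 0.0453 for the other 6). Chac1 had 9.37, 14.5 and 6.55 CPM in VE-PTPiKO IR and 4.7, 1.93 and 0.989 CPM in VE-PTPiKO sham, against 18.8, 31.9 and 21.6 CPM in Control IR and 1.73, 2.36 and 1.67 CPM in Control sham. All IR libraries lay above all sham libraries of their genotype. Its log2 fold change was 2.12 ± 0.51 in VE-PTPiKO (adjusted p = 0.0692), and the difference between the genotypes' responses was −1.44 ± 0.62 (adjusted p = 0.999). Slc7a11 was at a low level, with 2.79 to 3.2 CPM in VE-PTPiKO IR, 0.91 to 2.11 in VE-PTPiKO sham, 2.98 to 4.96 in Control IR and 0.308 to 1.97 in Control sham.

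Differences between the genotypes were tested across both tables, after joint normalization of the recovered reads. None of the 37 genes passed in the interaction, which is the IR response in VE-PTPiKO minus that in Control, or in the genotype contrast within IR or within sham, where 0.0% of 16346 genes passed in each. At an unadjusted p under 0.05 there were 1, 2 and 0 of the 37 genes, against 2.65%, 4.34% and 1.63% of all genes. Neither edgeR nor DESeq2 called any of the 37 in these 3 contrasts. The gene with an unadjusted p under 0.05 in the interaction was Osgin1, whose response differed by −0.95 ± 0.30 SE (log2, 95% interval −1.59 to −0.31, limma unadjusted p = 0.007, adjusted p = 0.999). Over 23 alternatives this difference ran from −1.12 to −0.71, and none called it. Between the genotypes after IR, Osgin1 lay −0.72 ± 0.21 in VE-PTPiKO relative to Control (unadjusted p = 0.00445, adjusted p = 1), with 3 of 3 VE-PTPiKO IR libraries below every Control IR library. In sham the same difference was 0.23 ± 0.21 (adjusted p = 1) and the ranges overlapped.

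Srxn1 differed by −0.31 ± 0.28 between the responses (interval −0.91 to 0.30, limma adjusted p = 0.999) and by −0.34 ± 0.20 between the genotypes after IR (interval −0.76 to 0.09, adjusted p = 1), where its groups did not overlap. Ephx1 was the other gene whose groups did not overlap after IR, with VE-PTPiKO higher by 0.30 ± 0.12 (unadjusted p = 0.0276, adjusted p = 1). So 1 of the 37 genes was higher and 2 were lower with no overlap after IR, beside 3.98% and 5.19% of all genes (9.16% either way). In sham no gene of the 37 was free of overlap, beside 2.51% and 2.37% (4.88% either way). The difference between the responses had an interval within 1.5-fold for 13 genes and within 2-fold for 32, and for the other 5 these data do not bound it to within 2-fold. In sham, the interval of the genotype difference lay within 1.5-fold for 25 genes and within 2-fold for 36.

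Within a group, the 37 genes tended to lie on the same side of their group means in a library. In VE-PTPiKO IR replicate 3, 34 of 37 lay below the group mean, with a median deviation of −0.317 on the log2 scale, while 47.7% of all 16346 genes did so. The exceptions were G6pdx, Pgd and Osgin1. In Control sham replicate 2, 36 of 37 lay below, with a median of −0.235, and Ephx1 alone lay above, while 47.9% of all genes lay below. In VE-PTPiKO sham replicate 2, 31 of 37 lay below (median −0.121), and in Control IR replicate 3, 32 of 37 did (median −0.089), beside 49.4% and 50.7% of all genes.

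The libraries with most Malat1 are the first 3 of these 4. In the same libraries longer genes lay higher relative to the group mean: Spearman's rho between a gene's deviation and its exon length, across 16339 genes that are not independent replicates, was 0.34 in VE-PTPiKO IR replicate 3, 0.32 in Control sham replicate 2 and 0.19 in VE-PTPiKO sham replicate 2. It was 0.2 in Control IR replicate 3. VE-PTPiKO sham replicate 3, at 0.16, did not share the members' shift, as 26 of 37 genes lay above the group mean there (median 0.04). The median exon length was 2674 bases for the 37 genes and 4165 for all genes tested. With a correction for exon length, the genes called were Srxn1 and Nqo1 in VE-PTPiKO, where 4.38% of all genes were called. In Control they were the 5 genes above and Nqo1, where 14.1% were. The part of RNA quality or exon length in the members' spread was not tested further.

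**Figure D4:**
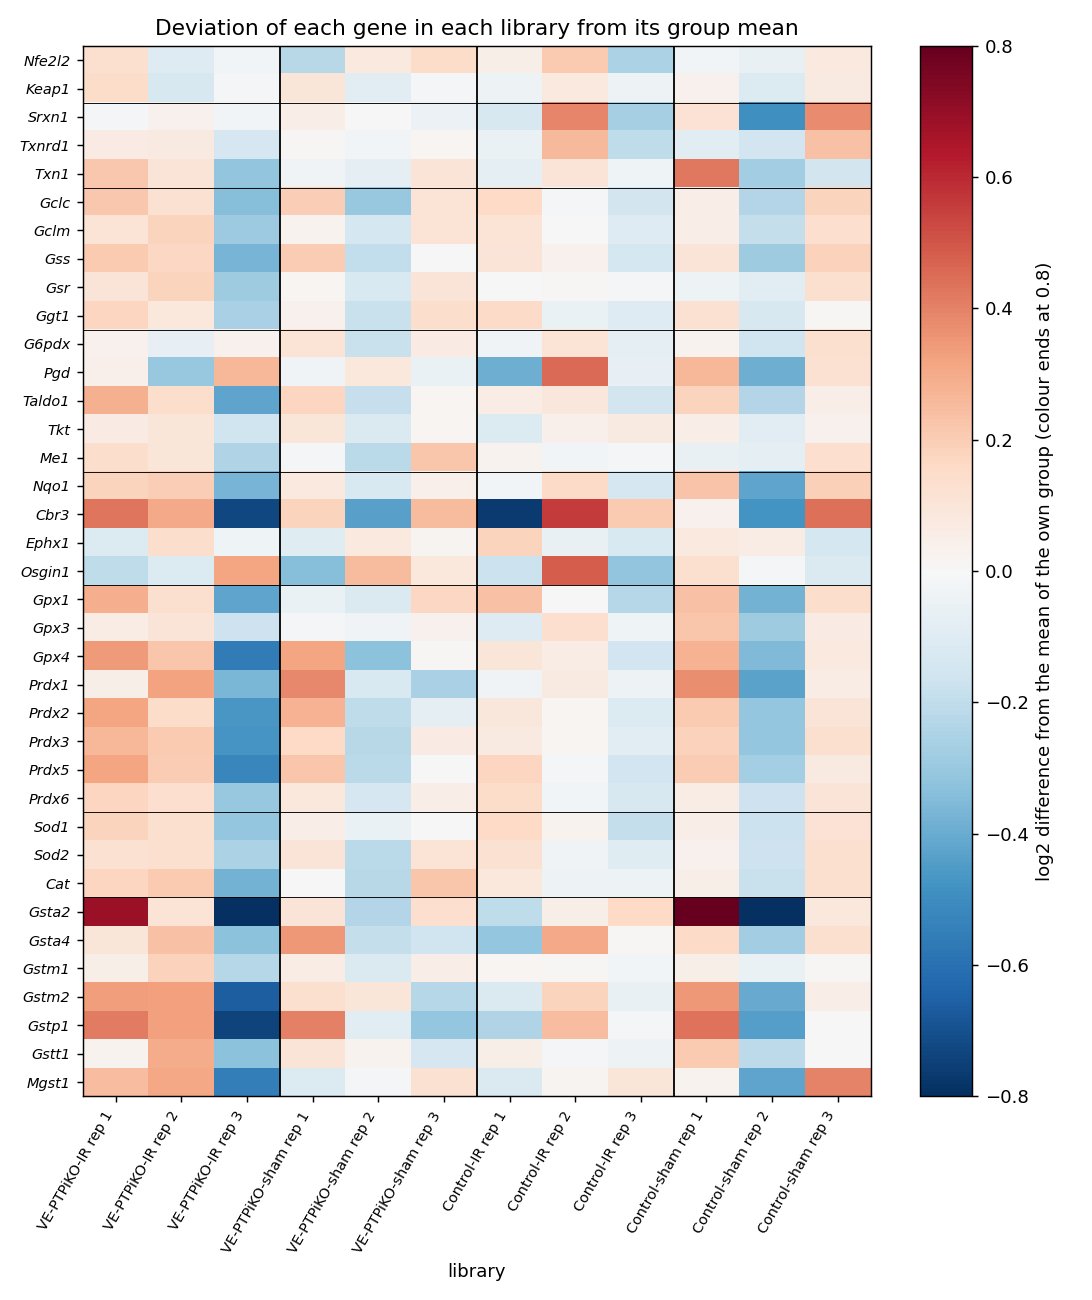
Log2 difference of each gene in each library from the mean of its own group, with genes in rows by role and libraries in columns from VE-PTPiKO IR to Control sham; red is above and blue below the group mean, and the colour ends at 0.8. VE-PTPiKO IR replicate 3 and Control sham replicate 2 appear as blue columns, with 34 and 36 of 37 genes below their group means.

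Levels of markers of other cells were read beside these results. The summed level of 6 red blood cell markers was 133 to 563 CPM in VE-PTPiKO IR, 85.8 to 152 in VE-PTPiKO sham, 334 to 607 in Control IR and 75.6 to 185 in Control sham. Hba-a2 was at 0 in both sham groups. Of the 5 tested, none was called in VE-PTPiKO, with 4 at an unadjusted p under 0.05, and 4 were called higher in Control (Hbb-bs, Hbb-bt, Hba-a1 and Alas2). The other, Slc4a1, is also a collecting duct marker. Red blood cells carry abundant peroxide defence enzymes, including those encoded by Prdx2 and Cat. The part of red blood cells in the levels of these genes was not tested. The 7 neutrophil markers summed to 11.0 to 21.2 CPM in VE-PTPiKO IR, 8.41 to 11.5 in VE-PTPiKO sham, 10.5 to 35.3 in Control IR and 6.4 to 13.5 in Control sham, with none called. The 7 monocyte and macrophage markers summed to 118 to 141 CPM in VE-PTPiKO IR, 104 to 115 in VE-PTPiKO sham, 128 to 141 in Control IR and 106 to 111 in Control sham. Of these, Cd68 was called higher in both genotypes and Lyz2 in Control. The 7 proximal tubule markers summed to 13100.0 to 17800.0 CPM in VE-PTPiKO IR, 14300.0 to 18500.0 in VE-PTPiKO sham, 13900.0 to 15500.0 in Control IR and 14300.0 to 20000.0 in Control sham, with none called. The 3 endothelial markers summed to 320.0 to 330.0 CPM in VE-PTPiKO IR, 259 to 271 in VE-PTPiKO sham, 272 to 327 in Control IR and 232 to 253 in Control sham, and Cdh5 was called higher in Control. No marker of loop of Henle, distal tubule, collecting duct or podocyte was called in either genotype. The part of these cells in the results for the 37 genes was not tested.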

How the data were processed

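RNA from whole kidneys was extracted with Trizol and sequenced from TruSeq RNA libraries, per the labels' protocols. The authors used FastQC, STAR, HTSeq and DESeq2 on mm10, per the submitters' processing notes; versions, and whether counting used strand, are not given in the sources used here. The 2 deposited tables, 1 per genotype with 6 libraries each, hold normalized signal per gene, which is the count divided by a size factor. They also hold log2 fold changes, p-values and scores from the authors' comparison of IR with sham, per the file headers. Multiplying the deposited signal by the factor recovered whole counts for 100.0% of values within a tolerance of 0.02, with size factors from 0.8863 to 1.2125. Of 23493 lines, 182 identifiers were repeated with identical values and 23286 were kept.

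Within each table, limma 3.58.1 (R 4.3.3) compared IR with sham on log2(value + 1), using its trend option and leaving out genes whose mean value was below 1. A gene was called when its p, adjusted by Benjamini and Hochberg's method over all genes tested, was under 0.05. The fold changes are therefore on the log2(value + 1) scale. For contrasts between genotypes, the recovered reads of the 12 libraries were scaled jointly (median of ratios, 14828 genes) and fitted with 1 mean for each group. CPM and RPKM were computed from the recovered counts, RPKM with GENCODE M21 exon lengths. Overlaps with other genes and shared 50-base windows come from the same annotation and its transcripts. Alternatives were TMM, edgeR 4.0.16, DESeq2 1.42.0, pseudocounts of 0.5 and 5, a minimum mean of 5 or none, a replicate block, an exon length correction (lowess span 0.3), 1 model of all libraries, the values as deposited for the interaction, leaving out the 3 libraries highest in Malat1, and leaving out each library.

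The members, the further list of 57 genes, the markers and the tests were chosen with earlier results of these data known. All 37 members are accounted for, and those called in either IR comparison are given by library, with others by library where the results turn on them. The labels do not say that libraries come from separate animals, so the p-values reflect only how far these samples vary, which may be technical. The 2 single-cell samples were not analysed here, and 1 marker of another cell type is not reported here.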

Additional observations from a re-analysis of the deposited data

How the results depend on the processing

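Srxn1 was called under all 17 alternatives in both genotypes, and Osgin1 under all 17 in Control. No called gene changed sign under any alternative. The number of the 37 genes called ran from 1 to 6 in VE-PTPiKO and from 2 to 6 in Control when single libraries were left out. In VE-PTPiKO it was 2 with the exon length correction and 2 without the 3 libraries highest in Malat1. The number of all genes called, 445 in VE-PTPiKO, was 1010 by DESeq2, 1019 in 1 model of all libraries, 719 with the length correction, and 853 without the 3 libraries highest in Malat1. Leaving out IR replicate 3 raised it to 1925, and leaving out IR replicate 1, IR replicate 2, sham replicate 2 or sham replicate 3 gave 194, 168, 170 and 126. In Control it was 1870, and ran from 862 (without IR replicate 2) to 2010 (without sham replicate 2) when single libraries were left out; it was 2196 by DESeq2 and 2299 with the length correction. The cause was not tested, though fewer samples entered each fit that left libraries out. In the interaction and the genotype contrasts 0 of the 37 genes were called under every alternative.

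The labels do not say whether replicate numbers pair the samples. The correlation of deviations between same-numbered IR and sham libraries was 0.301, −0.2 and 0.04 in VE-PTPiKO and 0.05, 0.003 and −0.059 in Control. These values cannot decide it, since VE-PTPiKO IR replicate 3 and VE-PTPiKO sham replicate 2, of unlike number, reached 0.358. With the replicate block, 1 of the 37 genes was called in VE-PTPiKO (604 of all genes) and 5 in Control (1805 of all genes). Groups of 3 and reads over whole genes limit what these data can show, and uncalled genes often changed sign between alternatives, 13 of the 37 in each genotype.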

Other observations

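Hmox1, the heme oxygenase that is among the best known targets of NRF2, was on the further list and is named here after its values were seen. It had 927, 475 and 581 CPM in VE-PTPiKO IR and 340.0, 376 and 529 CPM in VE-PTPiKO sham. It had 507, 889 and 337 CPM in Control IR and 211, 99.9 and 1070.0 CPM in Control sham. In Control sham the highest library, replicate 3, stood above every Control IR library, and the lowest, replicate 2, below all others. The log2 fold change was 0.59 ± 0.27 SE in VE-PTPiKO (limma adjusted p = 0.358) and 0.89 ± 0.68 in Control (adjusted p = 0.493).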
